A study of Mus musculus with 10 samples.

Results

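The genes described here encode the main apolipoproteins of mouse liver: Apoa1, Apoa2, Apoa4, Apoa5, Apob, Apoc1, Apoc2, Apoc3, Apoc4 and Apoe. They were taken by symbol, with earlier results of these data known. The 10 symbols matched 11 of the 47702 rows of the deposited expression table. Apoc2 was listed under 2 gene identifiers, and both rows are given. Of the 11 rows, Apoc2 and Apoa2 rose in livers that lacked intact Etnppl, and the other 9 rows did not pass the test. Among all genes tested, 3.98% passed as higher and 4.56% as lower. The Apoa2 rise did not pass after another scaling of the data, quantile normalization.

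Apolipoproteins are the protein part of lipoproteins, the particles that carry triglyceride and cholesterol through plasma, and hepatocytes secrete most of them. ApoB is the structural protein of very low density lipoprotein (VLDL), and apoA-I and apoA-II are the main proteins of high density lipoprotein (HDL). The smaller apolipoproteins move between particles: apoC-II activates lipoprotein lipase, the enzyme that clears plasma triglyceride, apoC-III opposes clearance, apoA-V promotes it, and apoE is the ligand that receptors on hepatocytes bind.

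Both groups were female mice fed chow for 20 weeks, with 5 liver samples each. One group was wild type (WT) and the other had Etnppl knocked out in the full body (KO). Etnppl is the gene for ethanolamine-phosphate phospho-lyase, which breaks down an intermediate of phosphatidylethanolamine synthesis. Poly-A RNA was sequenced and the authors gave FPKM, fragment numbers scaled by transcript length and by the library's total. The sources used here give no strain, age or targeted exon. The labels do not tie each sample to an animal of its own, and every p-value below sets a difference against the spread between samples, which may be technical.

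Etnppl itself averaged 65.79 ± 26.03 FPKM in the WT libraries (43.32 to 108.4) and 22.15 ± 3.92 FPKM in the KO libraries (17.72 to 26.43; SD, n = 5 each). All KO libraries lay below all WT libraries, and 33.7% of the WT mean remained (exact permutation test, two-sided, p = 0.0079, the smallest that 5 against 5 libraries allow). Relative depth, estimated from low genes taken to hold 1 fragment per library, ran from 0.901 to 1.099 across libraries and averaged 1.05 in WT and 0.954 in KO. The sources used here do not give total fragments per library. All 10 hepatocyte markers were measured, and together they summed to 60730 to 63040 FPKM in WT and 61470 to 63500 FPKM in KO. Alb gave most of this sum, with a mean of 41140 FPKM in WT and 43770 FPKM in KO.

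The genes lie at 4 places in the mm10 genome. In GENCODE M21, whose assembly is that of mm10, Apoe (19696109 to 19699188), Apoc1 (19689481 to 19692660), Apoc4 (19678083 to 19681479) and Apoc2 (19671579 to 19677941) form a cluster on the minus strand of chromosome 7. Apoa1 (46228580 to 46230466), Apoc3 (46232933 to 46235636, minus strand), Apoa4 (46240696 to 46243459) and Apoa5 (46268633 to 46271919) form a cluster on chromosome 9. Apoa2 is at 171225054 to 171226379 on the plus strand of chromosome 1, and Apob at 7977648 to 8016835 on the plus strand of chromosome 12.

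The second Apoc2 row (ENSMUSG00000109350, named Gm44805 in GENCODE M21) is a read-through unit from 19671584 to 19681423. It begins in the first exon of Apoc4 and is spliced into the exons of Apoc2. Of its 765 exonic bases, 646 (84.4%) are also exonic in the main Apoc2 gene (ENSMUSG00000002992), and the other 119 belong to Apoc4. All 5 annotated transcripts of the 2 rows carry the same coding sequence of 294 bases, which spans 3 exons from 19671761 to 19673601 on the minus strand. It is shown because fragments from it cannot be assigned to either row, so the split between the rows is uncertain. The capitals mark the start and stop codons.

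Apoc2 coding sequence: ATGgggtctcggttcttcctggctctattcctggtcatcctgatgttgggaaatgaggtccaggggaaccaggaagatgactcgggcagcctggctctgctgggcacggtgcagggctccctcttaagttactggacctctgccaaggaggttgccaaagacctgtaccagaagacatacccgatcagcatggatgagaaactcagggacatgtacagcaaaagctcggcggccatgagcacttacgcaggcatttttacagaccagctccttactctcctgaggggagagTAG

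The promoters of the 2 risen genes are shown for comparison, as the bases just before the start site, from RefSeq on GRCm38.p6. The Apoa2 stretch is chr1:171224804-171225053 (plus strand). The Apoc2 stretch is chr7:19677942-19678082 (minus strand), the whole gap between the last exon of Apoc4 and the RefSeq start of Apoc2. Capitals mark matches, on either strand, to TATAAA (the TATA box), CCAAT (the CCAAT box), AGGTCA (a nuclear receptor half-site) or CAAAGTCCA (a site of HNF4A, a nuclear receptor that drives many apolipoprotein genes).

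Apoa2 promoter: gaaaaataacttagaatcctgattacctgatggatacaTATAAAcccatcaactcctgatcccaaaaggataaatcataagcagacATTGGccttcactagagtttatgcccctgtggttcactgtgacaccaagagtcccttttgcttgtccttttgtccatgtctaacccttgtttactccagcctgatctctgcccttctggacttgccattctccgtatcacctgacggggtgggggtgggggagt
Apoc2 promoter: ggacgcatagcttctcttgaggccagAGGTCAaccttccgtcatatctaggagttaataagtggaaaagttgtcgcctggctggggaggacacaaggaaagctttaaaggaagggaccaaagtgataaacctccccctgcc

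The matches differed between the 2 stretches, which are of unlike length, 250 bases for Apoa2 and 141 for Apoc2. Apoa2 held TATAAA and CCAAT, and Apoc2 held AGGTCA. Another RefSeq window of Apoa2, not shown, held CCAAT and AGGTCA. Over 32851 RefSeq windows of 250 bases before a start site, 12.4% held TATAAA, 33.9% CCAAT, 14.0% AGGTCA and 0.384% CAAAGTCCA. RefSeq windows were matched for 8 of the 10 symbols, and none of their 12 windows held CAAAGTCCA. These are letter matches, not measured sites.

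Apolipoprotein transcripts were among the most abundant in the liver. The 11 rows together made up 7.24% to 8.17% of all FPKM in WT libraries and 7.78% to 8.31% in KO libraries. Of all genes, Apoe ranked 3rd by mean FPKM, Apoa2 10th and Apoa1 11th. In WT, the order of length-scaled levels was Apoe (19547 ± 1881 FPKM), Apoa1 (10836 ± 1667), Apoa2 (10436 ± 610), Apoc1 (6084 ± 621), Apoc3 (3614 ± 230), Apob (1364 ± 86.3), Apoa4 (1207 ± 428), Apoc4 (1016 ± 82.8), Apoa5 (830 ± 77.6), Apoc2 (461 ± 46.3) and the Apoc2 read-through row (17.4 ± 3.58; all SD, n = 5). Neighbours in this order whose WT libraries overlapped were Apoa1 with Apoa2, Apob with Apoa4, Apoa4 with Apoc4, and Apoc4 with Apoa5.

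**Figure D1:**
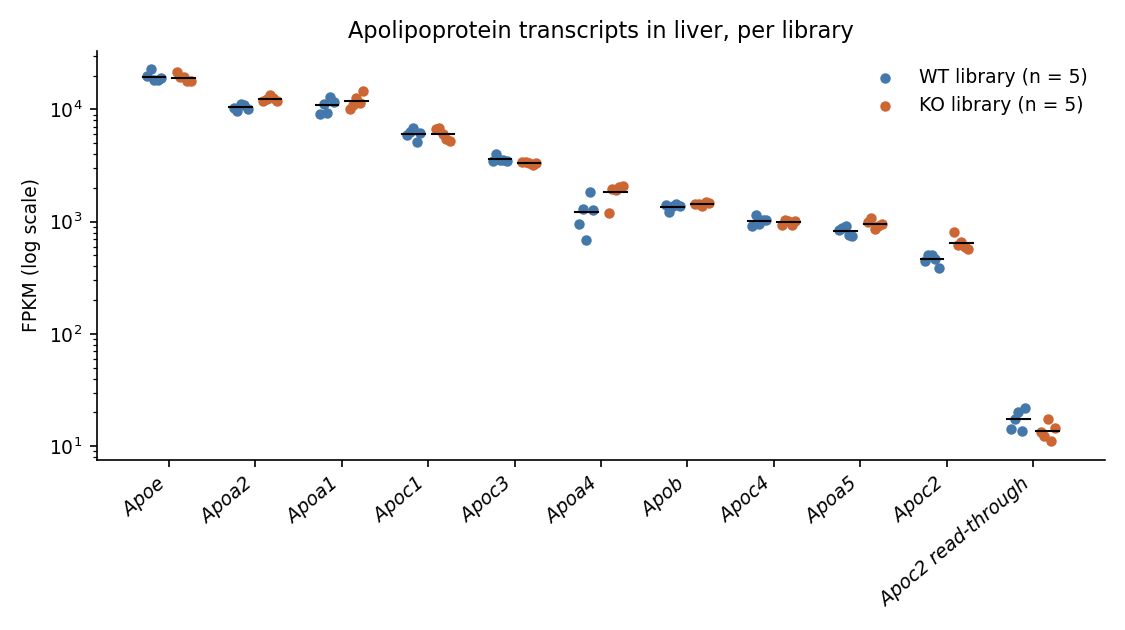
FPKM on a log axis for each apolipoprotein row in the 5 WT and 5 KO libraries, with the group mean as a black line. The rows run from Apoe, at a mean of 19383 FPKM over all libraries, to the Apoc2 read-through row, at 15.6 FPKM.

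Of the members, Apoc2 and Apoa2 were called higher in KO, where a call means that the limma p, adjusted over all 12247 genes tested, was under 0.05. No member was called lower, and 5 of the 11 rows had an unadjusted limma p under 0.05, as did 24.5% of all genes tested. Among all tested genes, 488 (3.98%) were called higher and 558 (4.56%) lower, 8.54% in all; after rescaling each library to the same sum (TPM), the split was 349 and 689. Other scalings turned the balance toward higher calls: quantile normalization gave 612 higher and 479 lower, removal of a length trend 576 and 506, scaling by the upper quartile 554 and 511, and scaling by median ratios 578 and 500. With 11 members, 2 calls are too few to set the group apart from that background. Across the members 6 rows had a positive and 5 a negative difference, and the median was 0.082 on the log2 scale, against -0.020 for all genes tested. All differences below are KO minus WT on the log2(FPKM + 0.5) scale.

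Apoc2, which encodes the activator of lipoprotein lipase, showed the clearer change. Its main row stood at 450.59, 500.11, 501.06, 465.48 and 388.24 FPKM in WT 1 to 5 and at 812.85, 614.81, 653.3, 591.56 and 565.36 FPKM in KO 1 to 5. Every KO library lay above every WT library, and KO 1 was the highest. On average KO reached 140% of WT, or 0.48 on the log2 scale (SE 0.10; limma, adjusted p = 0.015). The call held whichever library was left out, with adjusted p from 0.017 to 0.037.

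The Apoc2 read-through row did not follow the main row. It was at 14.17, 17.34, 19.98, 13.69 and 21.93 FPKM in WT 1 to 5 and at 13.26, 12.44, 17.63, 11.07 and 14.42 FPKM in KO 1 to 5, so the groups overlapped. KO minus WT came to -0.32 on the log2 scale (SE 0.15; limma, adjusted p = 0.20). The row held 3.69% ± 0.998 of the FPKM of both Apoc2 rows in WT and 2.11% ± 0.435 in KO (SD, n = 5 each). With both rows summed, a check added after the data were seen, KO was higher by 0.46 (SE 0.098; limma, adjusted p = 0.017).

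Apoa2, the second protein of HDL, rose by a smaller amount and with little spread. It was at 10317.38, 9646.7, 11105.11, 10989.37 and 10121.98 FPKM in WT 1 to 5. In KO 1 to 5 it was at 11916.43, 12290.04, 13346.15, 12755.9 and 11992.94 FPKM, each above every WT library. KO reached 119% of WT, or 0.26 on the log2 scale (SE 0.057; limma, adjusted p = 0.020). Without KO 4 the difference was 0.25 with an adjusted p of 0.0505. After quantile normalization it was 0.12 with an adjusted p of 0.26.

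Apoa1, the main protein of HDL, and Apob, the structural protein of VLDL, did not pass. Apoa1 ran from 9086 to 12967 FPKM in WT and from 10098 to 14540 FPKM in KO, with a log2 difference of 0.14 (95% interval -0.12 to 0.40, limma adjusted p = 0.51). Apob ran from 1220 to 1439 FPKM in WT and from 1367 to 1503 FPKM in KO, with a difference of 0.08 (95% interval -0.037 to 0.20, limma adjusted p = 0.39). For Apob the interval leaves out a change of 0.26, the size seen for Apoa2. For Apoa1 it does not. This comparison holds for the values without rescaling. After quantile normalization Apob differed by 0.13 (SE 0.068) and Apoa2 by 0.12 (SE 0.0605).

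**Figure D2:**
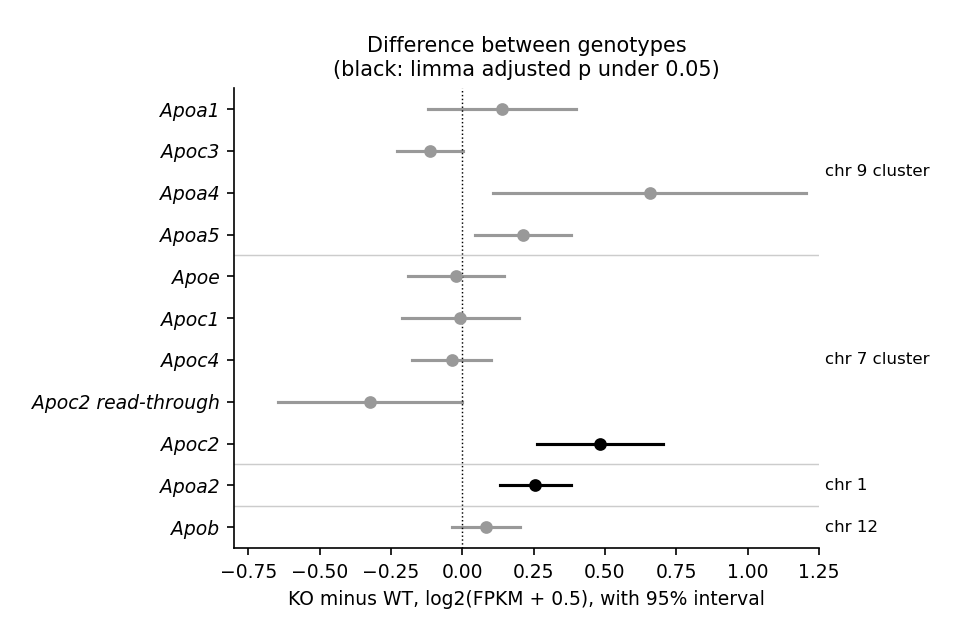
KO minus WT difference on the log2(FPKM + 0.5) scale with its 95% limma interval for the 11 rows, grouped by chromosome. Apoc2 (0.48) and Apoa2 (0.26) are black, the rows called at an adjusted p under 0.05, and Apoa4 has the widest interval (0.11 to 1.21).

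Apoa4, an apolipoprotein of chylomicrons and HDL, had the largest difference of the group and the largest spread. It was at 951.84, 1302.4, 687.41, 1828.06 and 1267.62 FPKM in WT 1 to 5 and at 1206.1, 1965.38, 1913.31, 2036.95 and 2079.06 FPKM in KO 1 to 5. KO 2 to 5 lay above all WT libraries, while KO 1 fell among them. KO averaged 152% of WT, or 0.66 on the log2 scale (SE 0.25), but did not pass (limma, adjusted p = 0.14). The coefficient of variation was 35.5% in WT, against 5.85% for Apoa2.

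Apoa5, which promotes triglyceride clearance, was at 845.55, 878.93, 924.24, 764.28 and 739.15 FPKM in WT 1 to 5. In KO 1 to 5 it was at 986.94, 1084.79, 867.31, 918.97 and 951.81 FPKM, and KO 3 and KO 4 lay within the WT range. The log2 difference of 0.21 (SE 0.077) did not pass (limma adjusted p = 0.11). It stayed between 0.17 and 0.25 whichever library was left out.

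Apoc3, the inhibitor of triglyceride clearance, was at 3442.62, 4015.85, 3577.43, 3537.17 and 3496.22 FPKM in WT 1 to 5 and at 3425.37, 3432.3, 3311.73, 3179.97 and 3333.28 FPKM in KO 1 to 5. The groups did not overlap, by the margin between 3442.62 FPKM in WT 1 and 3432.3 FPKM in KO 2. Among all genes tested, 4.78% had all KO libraries below all WT libraries, and 4.08% had them all above, as Apoc2 and Apoa2 did. The Apoc3 difference was -0.11 (95% interval -0.23 to 0.0028, limma adjusted p = 0.21), and it was -0.075 without WT 2.

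Apoe, Apoc1 and Apoc4, the other genes of the chromosome 7 cluster, had differences near 0. Apoe ran from 18215 to 22744 FPKM in WT and from 17789 to 21614 FPKM in KO, a log2 difference of -0.023 (95% interval -0.19 to 0.14, limma adjusted p = 0.89). Apoc1, which can activate the cholesterol-esterifying enzyme LCAT, differed by -0.0065 (95% interval -0.21 to 0.20, limma adjusted p = 0.97). Apoc4, a minor protein of VLDL, differed by -0.038 (95% interval -0.17 to 0.099, limma adjusted p = 0.76). For these 3 genes the intervals leave out a rise of 0.48, the size seen for Apoc2. The signs of Apoe, Apoc1 and Apoc4 were not stable when single libraries were left out.

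**Figure D3:**
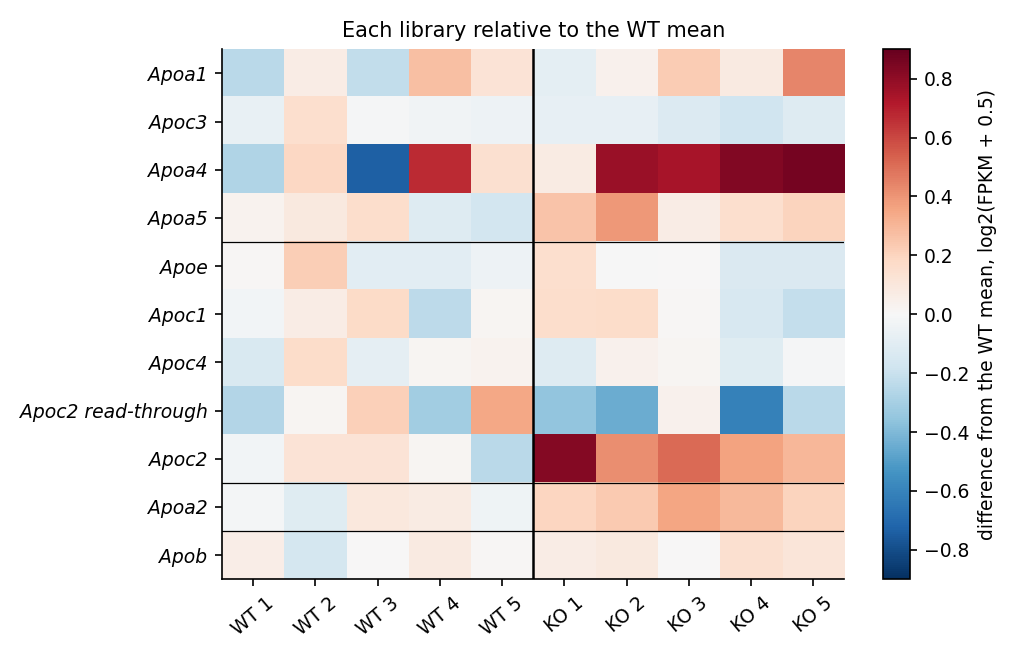
Each library's level of the 11 rows as a difference from the WT mean, on the log2(FPKM + 0.5) scale, with rows grouped by chromosome as 9, 7, 1 and 12 from the top. On this scale Apoc2, Apoa2, Apoa4, Apoa5 and Apob are above the WT mean in all 5 KO libraries, though Apoa4, Apoa5 and Apob were not called. Apoa4 is low in WT 3 (687.41 FPKM) and only just above the WT mean in KO 1 (1206.1 FPKM).

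Ratios between members within a library are unchanged when the whole library is multiplied by a common factor, and 4 were compared. Quantile normalization and removal of a length trend can change them, and the ratios were not rerun under these. The ratio of Apoc2, the lipase activator, to Apoc3, the inhibitor, was 0.128 ± 0.0108 in WT (0.111 to 0.140) and 0.194 ± 0.0263 in KO (0.170 to 0.237; SD, n = 5 each). No KO library overlapped WT, and the log2 ratio differed by 0.60 (exact permutation test, two-sided, p = 0.0079, adjusted over the 4 ratios p = 0.016). Every KO library was above every WT library for Apoc2 and below for Apoc3, so this ratio had to separate. Its permutation p was thereby fixed and adds nothing beyond the 2 rows. The ratio of Apoa5 to Apoc3 was 0.230 ± 0.0207 in WT (0.211 to 0.258) and 0.288 ± 0.0192 in KO (0.262 to 0.316), again without overlap (log2 0.33, exact p = 0.0079, adjusted p = 0.016). Neither Apoa5 nor Apoc3 passed limma on its own, but that test was adjusted over all genes tested and the ratios over 4. Before adjustment the limma p was 0.017 for Apoa5 and 0.055 for Apoc3. The single rows were not put through the permutation test. The pass of the ratio therefore does not show a clearer difference than its genes had.

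The ratio of Apoa4 to its neighbour Apoa1 was 0.109 ± 0.0238 in WT and 0.154 ± 0.0253 in KO (SD, n = 5 each). KO 1 (0.119) lay within the WT range, which reached 0.141, and the other KO libraries lay above it (log2 0.52, exact permutation p = 0.016, adjusted p = 0.021). The ratio of Apoa1 to Apob, which sets the HDL protein against the VLDL protein, was 7.97 ± 1.31 in WT and 8.28 ± 1.22 in KO and did not differ beyond the spread (exact permutation p = 0.71). The 3 ratios that passed did so whichever library was left out, with adjusted p of at most 0.042. For Apoa5/Apoc3 and Apoc2/Apoc3 this was fixed in advance, because groups that do not overlap stay apart when a library is removed. For Apoc2/Apoc3 the separation was also fixed by the values of its 2 genes.

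**Figure D4:**
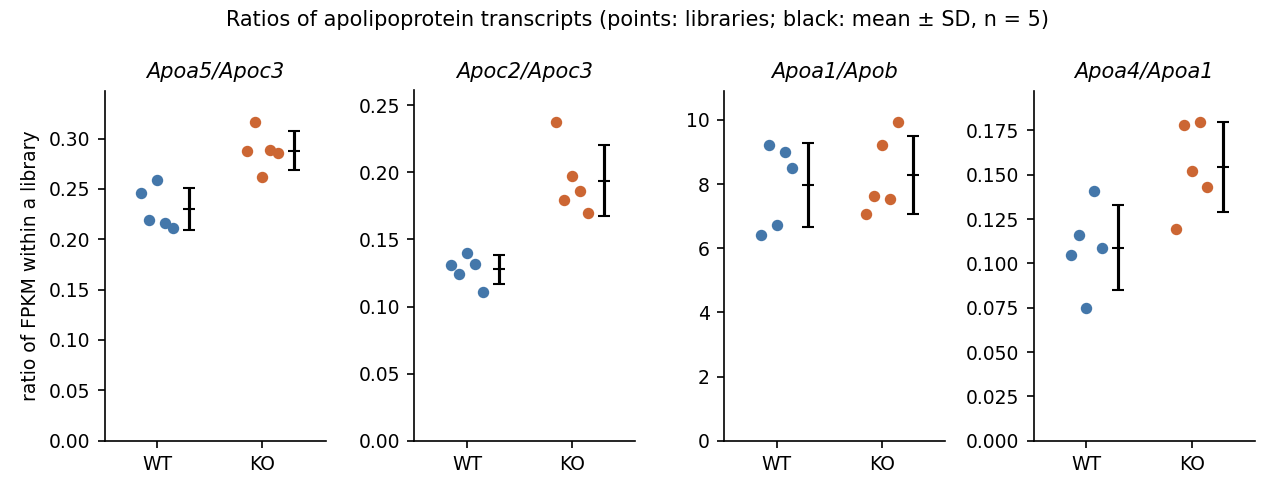
Ratio of FPKM within each library for 4 pairs of apolipoproteins, with the axis from 0 and the mean ± SD (n = 5) in black. Apoa5/Apoc3 and Apoc2/Apoc3 do not overlap between WT and KO, while Apoa1/Apob covers 6.40 to 9.21 in WT and 7.08 to 9.93 in KO.

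The 55 pairs of rows were correlated over the 10 libraries after centring each genotype, permuting libraries within genotype. Apoa1 and Apoa4, of the chromosome 9 cluster, had the smallest p (Pearson r = 0.82, permutation p = 0.0097; Spearman rho = 0.81, permutation p = 0.015). Without the 2 libraries farthest from the Apoa1 median, WT 4 and KO 5, r was 0.80. The adjusted p over the 55 pairs was 0.34 for r and 0.41 for rho, and no pair passed at 0.05, although 6 had an unadjusted permutation p under 0.05 for r.

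Position in a cluster went with no uniform pattern. The median r was 0.32 over the 10 pairs within the chromosome 7 cluster (-0.15 to 0.64), 0.024 over the 6 pairs within the chromosome 9 cluster (-0.58 to 0.82) and -0.16 over the 39 pairs from different loci (-0.83 to 0.77). The 2 Apoc2 rows, which share exons, had r = -0.078 (permutation p = 0.83; rho = 0.042, permutation p = 0.92). All values are shares of a library's total, which ties abundant transcripts to each other.

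The tested genes within 50000 bases of the clusters were few. Beside the chromosome 7 cluster, Pvrl2, a cell adhesion protein, rose from 24.85 to 32.83 FPKM (log2 0.40, SE 0.090, limma adjusted p = 0.021). Tomm40, a pore of the outer mitochondrial membrane next to Apoe, stood at 28.71 FPKM in WT and 35.1 FPKM in KO (log2 0.29, limma adjusted p = 0.056). Clptm1, next to Apoc2, had a difference of -0.0014 and Relb of 0.036. Beside the chromosome 9 cluster, Zpr1 (-0.33, limma adjusted p = 0.056), Sik3 (0.14) and Bud13 (-0.0063) did not pass.

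The genes whose levels followed the 2 risen members most closely over the 10 libraries were Grb14 (r = 0.97), Pus1 (0.96) and Apmap (0.95) for Apoa2, and Gm7336 (0.95), Gm3839 (0.94) and Ndufa12 (0.93) for Apoc2. Grb14 is an adaptor that restrains the insulin receptor, and Ndufa12 is a subunit of respiratory complex I. These Pearson correlations on log2(FPKM + 0.5) are a description. They include the difference between genotypes and are the highest among 12247 genes.

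Of a list of 20 other apolipoproteins and HDL proteins, 10 were tested. Of these 3 fell, where 4.56% of all genes tested fell, and 7 did not pass, with a median log2 difference of -0.23. Counting the 3 that fell, 7 of the 10 had an unadjusted limma p under 0.05, against 24.5% of all genes tested. Saa4, a constitutive serum amyloid A of HDL, fell from 81.2 ± 5.88 to 38.0 ± 5.44 FPKM (SD, n = 5 each; log2 -1.09, limma adjusted p = 0.00019). Pon1, the HDL esterase paraoxonase, fell by 0.24 on the log2 scale and Apoh, a phospholipid-binding plasma protein, by 0.17 (limma adjusted p = 0.035 and 0.046).

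Genes that assemble, remodel or take up lipoproteins were read beside all genes tested, of which 3.98% were called higher and 4.56% lower. An unadjusted limma p under 0.05 was held by 24.5% of all genes tested. It was held by 9 of 16 assembly and editing genes, 4 of 11 lipolysis and remodelling genes and 7 of 13 receptor and efflux genes. Of 16 assembly and apoB editing genes (median -0.10), 2 fell and 14 did not pass. They were Mia3, which helps to load large cargo at the endoplasmic reticulum (log2 -0.32, limma adjusted p = 0.011), and Sort1, a sorting receptor for apoB (-0.49, 0.036). Of 11 genes of plasma lipolysis and remodelling (median -0.12), 1 fell and 10 did not pass. It was Pltp, the phospholipid transfer protein, from 30.1 ± 2.11 to 21.7 ± 1.76 FPKM (log2 -0.46, limma adjusted p = 0.0036).

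Of 13 receptor and efflux genes (median -0.15), 2 rose, 2 fell and 9 did not pass. Cd36, a fatty acid and lipoprotein scavenger receptor, rose by 0.58 and Vldlr, the VLDL receptor, by 0.65 on the log2 scale (limma adjusted p = 0.0061 and 0.034). Lsr, a receptor for triglyceride-rich particles, fell by 0.56 and Lrp1, a receptor for apoE-bearing remnants, by 0.33 (limma adjusted p = 0.0096 and 0.030). Mttp, the transfer protein that lipidates apoB, was looked up after its value was seen and differed by 0.041 (limma adjusted p = 0.83).

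Of 28 tested regulators of apolipoprotein transcription (median -0.037), Srebf2, the activator of sterol genes, fell from 8.56 ± 1.30 to 5.78 ± 0.496 FPKM (SD, n = 5 each; log2 -0.52, limma adjusted p = 0.010), and 27 did not pass. Among all genes tested, 4.56% were called lower. An unadjusted limma p under 0.05 was held by 6 of the 28, against 24.5% of all genes tested. Hnf4a, Creb3l3 and Ppara, named here after their values were seen because they act on apolipoprotein promoters, had differences of -0.30 (limma adjusted p = 0.12), 0.00045 (0.998) and 0.14 (0.58).

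Markers of other cell types were read beside these results. Macrophages make apoE, apoC-I and apoC-II too. Their 13 markers, of Kupffer cells and other macrophages, summed to 305.5 to 348.6 FPKM in WT and 213.4 to 307 FPKM in KO. An unadjusted limma p under 0.05 was held by 9 of the 13, against 24.5% of all genes tested. Limma called 5 of the 13 lower, where 4.56% of all genes tested were, and 8 did not pass. The 5 were Clec4f, C1qa, Vsig4, Csf1r and Folr2, named like the other marker genes below after their values were seen. Marco, a scavenger receptor of macrophages in the same list, went the other way without passing, at 6.71 ± 2.40 FPKM in WT and 12.4 ± 7.71 FPKM in KO (SD, n = 5 each; log2 0.75, limma adjusted p = 0.19). Apoc2 rose and Apoe had a difference near 0 beside this; the part of macrophages in these values was not tested. Enterocytes make apoA-IV in the intestine. Of their 8 markers, Alpi and Sis were at 0 in every library, and Fabp2 gave most of the sum of 73.0 to 95.1 FPKM in WT and 69.7 to 82.4 FPKM in KO. In bulk tissue, fewer cells of a type and less RNA per cell cannot be told apart.

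Summed levels of the remaining marker lists overlapped between genotypes. They were 193.4 to 203.7 FPKM in WT and 175.3 to 200.4 FPKM in KO for 8 sinusoidal endothelial markers, where limma called none and 3 had an unadjusted p under 0.05 (24.5% of all genes tested). For 8 stellate cell and fibroblast markers they were 132.1 to 170 and 123.7 to 142 FPKM, where Reln fell (log2 -0.26). For 5 cholangiocyte markers they were 14.8 to 19.9 and 13.1 to 18.2 FPKM, where Sox9 fell (log2 -0.56). For 6 blood cell markers they were 232 to 405.2 and 205.8 to 339.7 FPKM. Adipocyte and pancreatic acinar markers summed to at most 3.08 and 2.74 FPKM in any library. Of the 10 hepatocyte markers, Cps1 rose (log2 0.58), and Fga (-0.37), Fgg (-0.30) and Trf (-0.25) fell. Among all genes tested, 3.98% were called higher and 4.56% lower.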

How the data were processed

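Poly-A RNA of 5 WT and 5 KO livers gave paired-end reads, per the labels' protocols. The deposited table gave FPKM per gene and library, computed by the authors. The submitters' processing notes name STAR, RSEM, R 4.0.2, DESeq, DESeq2 and the mm10 build, with no roles. The sources used here state neither annotation release nor strand setting, so overlapping genes may share fragments, and FPKM of transcripts near the fragment length depends on the length correction.

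The deposited FPKM were taken to log2(FPKM + 0.5) with no rescaling, which understates fold changes of low genes. limma 3.58.1 (R 4.3.3) fitted genotype alone, with the trended and robust forms of eBayes, to each gene whose average over the 10 libraries reached 0.5 FPKM. P-values were two-sided, with Benjamini-Hochberg adjustment over the 12247 genes tested and a call at 0.05. All 11 member rows passed the filter. The fit was tested on simulated data. Ratios and correlations used exact enumeration over libraries (scipy 1.17.1), with 14400 arrangements within genotypes for correlations. Relative depth came from genes with near-equal low values in 3 to 6 libraries and 0 in the rest, taken as 1 fragment each. Of 47 such genes, the estimate kept the 32 that fitted common depths within 2%. These were kept because they fitted, so their agreement does not measure precision.

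Text names Etnppl, all members, the called genes of each pathway list and the 3 genes most like each of the 2 members with the smallest p. Members and lists were chosen with earlier results of these data known. Alternatives were other pseudocounts, filters, scalings and fits, a length trend (lengths for 98.9% of rows), a replicate block and each library left out. Figures used matplotlib 3.10.9.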

Additional observations from a re-analysis of the deposited data

Results flagged for a closer look

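In 32 groups of 5 libraries (11 rows, 4 ratios and Etnppl in each genotype), 2 held a library far from the other 4, where chance gives about 1 in 20, or 1.6. Apoa4 was at 1206 FPKM in KO 1 against 1913 to 2079 FPKM in the other KO libraries. Without KO 1 its log2 difference was 0.80 (limma adjusted p = 0.081). Apoc3 was at 4016 FPKM in WT 2 against 3443 to 3577 FPKM in the other WT libraries, and without WT 2 its log2 difference was -0.075 (limma adjusted p = 0.36).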

How the results depend on the processing

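Apoc2 stayed called under all 12 other settings and whichever of the 10 libraries was left out. Apoa2 stayed called under 11 of the 12, and the number of members called higher became 1 after quantile normalization and ranged from 1 to 2 with 1 library left out (1 without KO 4). No member was called lower under any setting run. Over all genes, 294 were called higher and 370 lower when low genes were kept (21111 tested), and 230 and 321 with the replicate number as a block, where Apoc2 and Apoa2 stayed called and 2 of 5 WT libraries correlated best with their own number. Same-numbered WT and KO samples correlated from -0.21 to 0.21 in their deviations, so the numbers were not taken to pair them. They ranged from 258 to 454 and from 316 to 541 with 1 library left out. The sign of Apoc1 turned with values of 0.012 (median-of-ratios), 0.0085 (upper-quartile) and 0.0021 (library weights). With 1 library left out, Apoc1 ranged from -0.066 to 0.045, Apoc4 from -0.072 to 0.0037, Apoe from -0.066 to 0.033 and the log2 Apoa1/Apob ratio difference from -0.017 to 0.11. The cause was not tested. No pair of members passed the correlation test after median-of-ratios scaling either. Total depth is unknown, so no counting interval is given.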
